A study of Homo sapiens with 10 samples.

Results

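The clustered protocadherins are cell-surface cadherins encoded in 3 neighbouring gene clusters (alpha, beta and gamma) on chromosome 5. Members were chosen by gene symbol (PCDHA, PCDHAC, PCDHB, PCDHGA, PCDHGB or PCDHGC followed by a number), which gave 54 of the 62709 genes with values (28084 of these genes had a read). There were 16 alpha, 16 beta and 22 gamma genes, and all 54 lie on the plus strand in GENCODE release 29 (GRCh38). H441 is a human cell line established from a lung adenocarcinoma, called epithelial by the labels, and its RNA was sequenced in 10 libraries. Cells titled TET1_KO (KO, 3 libraries) had TET1 knocked out of the wild-type line with CRISPR-Cas9, and cells titled OE (2 libraries) were transfected with a plasmid for full-length human TET1. Cells titled Lipo (2 libraries), a word the labels do not explain, and cells titled WT (3 libraries) were both labelled wild type without treatment. All groups were grown in RPMI with 10% fetal bovine serum. The labels do not say whether KO is 1 clone, which promoter drives the plasmid, how long after transfection RNA was taken, or whether each replicate was its own culture. P-values thus describe the spread between these libraries, which may be technical.

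Each alpha or gamma isoform is transcribed from its own promoter ahead of a variable exon, which encodes the extracellular, transmembrane and proximal cytoplasmic parts, and is spliced to exons shared by the whole cluster. Beta genes carry no shared exons. In neurons, promoters are chosen cell by cell through CTCF and cohesin looping, methylated promoters are silent, and the resulting proteins bind like to like so that a neuron recognises its own branches. The C-type genes (PCDHAC1, PCDHAC2, PCDHGC3, PCDHGC4 and PCDHGC5) differ from the other isoforms in that neurons use them more uniformly. TET1 oxidises methylated cytosine, and long-range methylation of these clusters is known in several tumours, among them Wilms tumour. DNA methylation itself was not analysed here.

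The promoters of the 4 genes that passed the KO test below (PCDHAC1, PCDHAC2, PCDHGC3 and PCDHB9) and of the most abundant member, PCDHGB5, are shown because methylation acts on CG dinucleotides, which are in capitals. Sequences are from RefSeq on GRCh38.p14, plus strand, from 250 bases before to 50 after the annotated start. They span chr5:140926049-140926348 for PCDHAC1, chr5:140966226-140966525 for PCDHAC2, chr5:141475716-141476015 for PCDHGC3, chr5:141186911-141187210 for PCDHB9 and chr5:141397697-141397996 for PCDHGB5.
PCDHAC1: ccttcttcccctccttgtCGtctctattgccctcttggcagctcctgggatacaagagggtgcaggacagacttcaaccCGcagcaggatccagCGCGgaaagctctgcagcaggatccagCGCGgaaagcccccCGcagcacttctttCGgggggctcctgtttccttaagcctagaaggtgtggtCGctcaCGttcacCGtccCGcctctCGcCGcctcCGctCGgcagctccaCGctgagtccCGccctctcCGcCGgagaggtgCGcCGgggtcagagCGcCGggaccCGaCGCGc
PCDHAC2: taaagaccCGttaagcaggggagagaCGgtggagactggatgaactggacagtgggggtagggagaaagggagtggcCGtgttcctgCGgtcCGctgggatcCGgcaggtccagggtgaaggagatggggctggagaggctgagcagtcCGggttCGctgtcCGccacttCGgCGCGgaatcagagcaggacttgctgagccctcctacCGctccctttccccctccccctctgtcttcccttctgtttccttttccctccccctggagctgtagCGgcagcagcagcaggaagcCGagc
PCDHGC3: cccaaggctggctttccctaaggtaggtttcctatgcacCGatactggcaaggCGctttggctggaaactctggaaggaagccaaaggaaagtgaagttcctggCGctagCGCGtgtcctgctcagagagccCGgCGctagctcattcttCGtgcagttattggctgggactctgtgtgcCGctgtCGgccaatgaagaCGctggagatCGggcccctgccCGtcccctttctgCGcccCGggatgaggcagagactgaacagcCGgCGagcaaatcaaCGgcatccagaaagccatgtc
PCDHB9: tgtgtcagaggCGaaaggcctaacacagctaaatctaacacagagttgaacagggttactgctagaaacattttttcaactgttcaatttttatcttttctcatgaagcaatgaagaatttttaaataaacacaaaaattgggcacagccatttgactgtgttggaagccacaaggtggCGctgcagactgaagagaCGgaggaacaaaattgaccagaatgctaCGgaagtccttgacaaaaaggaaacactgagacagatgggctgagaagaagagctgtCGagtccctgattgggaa
PCDHGB5: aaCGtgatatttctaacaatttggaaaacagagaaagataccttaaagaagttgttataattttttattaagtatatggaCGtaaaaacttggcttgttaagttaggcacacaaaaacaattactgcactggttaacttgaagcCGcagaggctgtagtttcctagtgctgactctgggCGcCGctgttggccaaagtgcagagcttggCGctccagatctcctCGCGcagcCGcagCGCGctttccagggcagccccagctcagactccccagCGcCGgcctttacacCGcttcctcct
The C-type promoters were among the most CG-rich of the members. These windows held 27 CG dinucleotides in PCDHAC1, 15 in PCDHAC2 and 18 in PCDHGC3, against 5 in PCDHB9 and 14 in PCDHGB5. Over the 47 members with a RefSeq promoter, the median was 7 (range 2 to 27), against 13 over all 27305 promoters of 300 bases. The 4 C-type promoters in the table held 15 to 27 (median 20.5), and the other 43 held 2 to 16 (median 7). The motif CGCT, a core of the element shared by protocadherin promoters, was searched on both strands and was found in 46 of the 47 windows (97.9%), against 69.3% of all promoters. PCDHA9 had no match. A match to so short a motif does not show that the whole element is present. These counts describe letters in a window and say nothing of methylation or of binding in these cells.

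**Figure D1:**
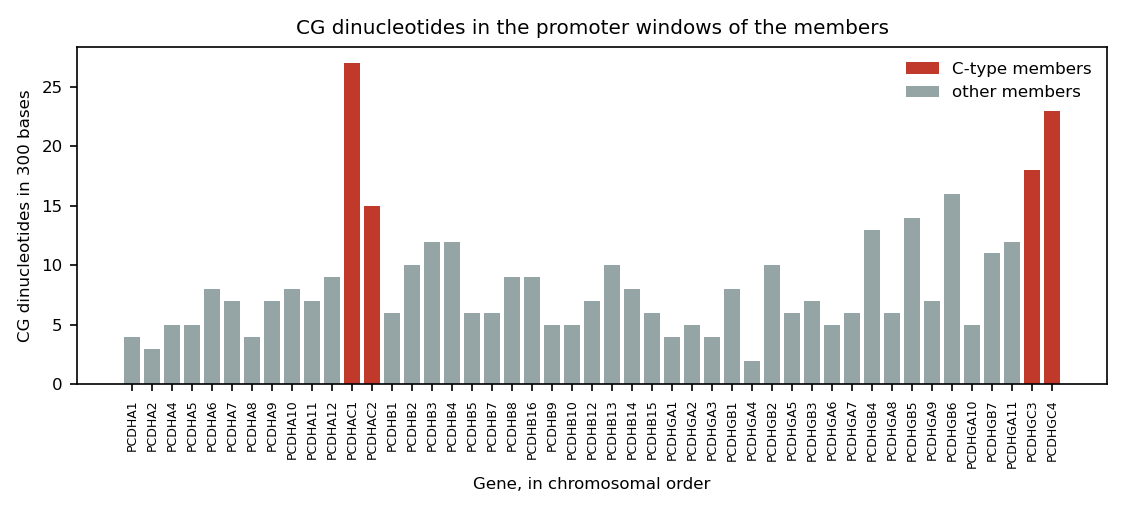
Number of CG dinucleotides (y axis) in the 300-base promoter window of each of 47 members, in chromosomal order (x axis), with C-type members in red and the others in grey. PCDHAC1, with 27, is the tallest bar, and the C-type bars run from 15 to 27 against 2 to 16 for the other members.

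Counts per library totalled 20994462 to 25981097, of which the 54 members together took 1315 to 2329 reads (0.00568% to 0.00896%). Levels are CPM, read counts scaled to a common library size after TMM (trimmed mean) scaling, and a count of 0 allows up to 0.114 to 0.148 CPM depending on the library (3 counts, counting error only). TET1 itself stood at 0.176, 0 and 0.346 CPM in KO, 881 and 956 CPM in OE, 0 and 0.0456 CPM in Lipo, and 0.0865, 0.267 and 0 CPM in WT. TET1 RNA therefore marked OE apart from every other library, and could not serve to check the KO label, because WT held hardly any. WT 1 stood apart from WT 2 and WT 3 over all genes (chi-square per degree of freedom 42.8 and 46.6, against 6.36 between WT 2 and WT 3), and the KO libraries differed from each other by 39.7 to 65.4. KO 1 and WT 1 also had the most genes with a count (21239 and 21450, against 18772 to 20832 in the other libraries), and results in KO were also computed without both. The epithelial markers were all detected in every group, with summed levels of 8948 to 12210 CPM in KO, 14040 to 14170 in OE, 11920 to 12540 in Lipo and 11790 to 13070 in WT. Of 7 neuronal markers 5 were at 0 in each group, among them SNAP25, STMN2 and GAP43 in all 4, and their sums were 1.32 to 2.19 CPM in KO, 5.57 to 6.34 in OE, 2.46 to 2.87 in Lipo and 1.95 to 2.23 in WT. The immune and endothelial sums reached at most 1.25 CPM (in Lipo) and 2.62 CPM (in OE). Of the lung markers, SFTPC was at 0 outside WT and SCGB1A1 in all 4 groups, with sums of 278 to 383 CPM in KO, 243 to 245 in OE, 286 to 294 in Lipo and 430 to 466 in WT.

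H441 cells expressed a small, repeated subset of the isoforms. A member is called on in a group where every library reached 0.5 CPM, off where the group's libraries held 3 or fewer reads in all, and at trace level otherwise. By this measure 18 members were on in KO, 15 in OE, 18 in Lipo and 17 in WT. The same 12 were on in all 4 groups, and 20 were on in at least 1. Another 9 were off in all 4 groups, and PCDHA3, PCDHB1 and the pseudogene PCDHA14 had no read in any library. By cluster, 3 alpha, 4 beta and 11 gamma members were on in KO, 4, 3 and 8 in OE, 4, 3 and 11 in Lipo, and 4, 3 and 10 in WT. Trace levels were found for 26 members in KO, 18 in OE, 20 in Lipo and 24 in WT. With 3 libraries in KO and WT against 2 in OE and Lipo, both on and off were harder to reach in KO and WT. Differences in these counts between groups are therefore not read as results. RNA was pooled over many cells, so fewer cells using a promoter and less RNA per cell cannot be told apart.

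**Figure D2:**
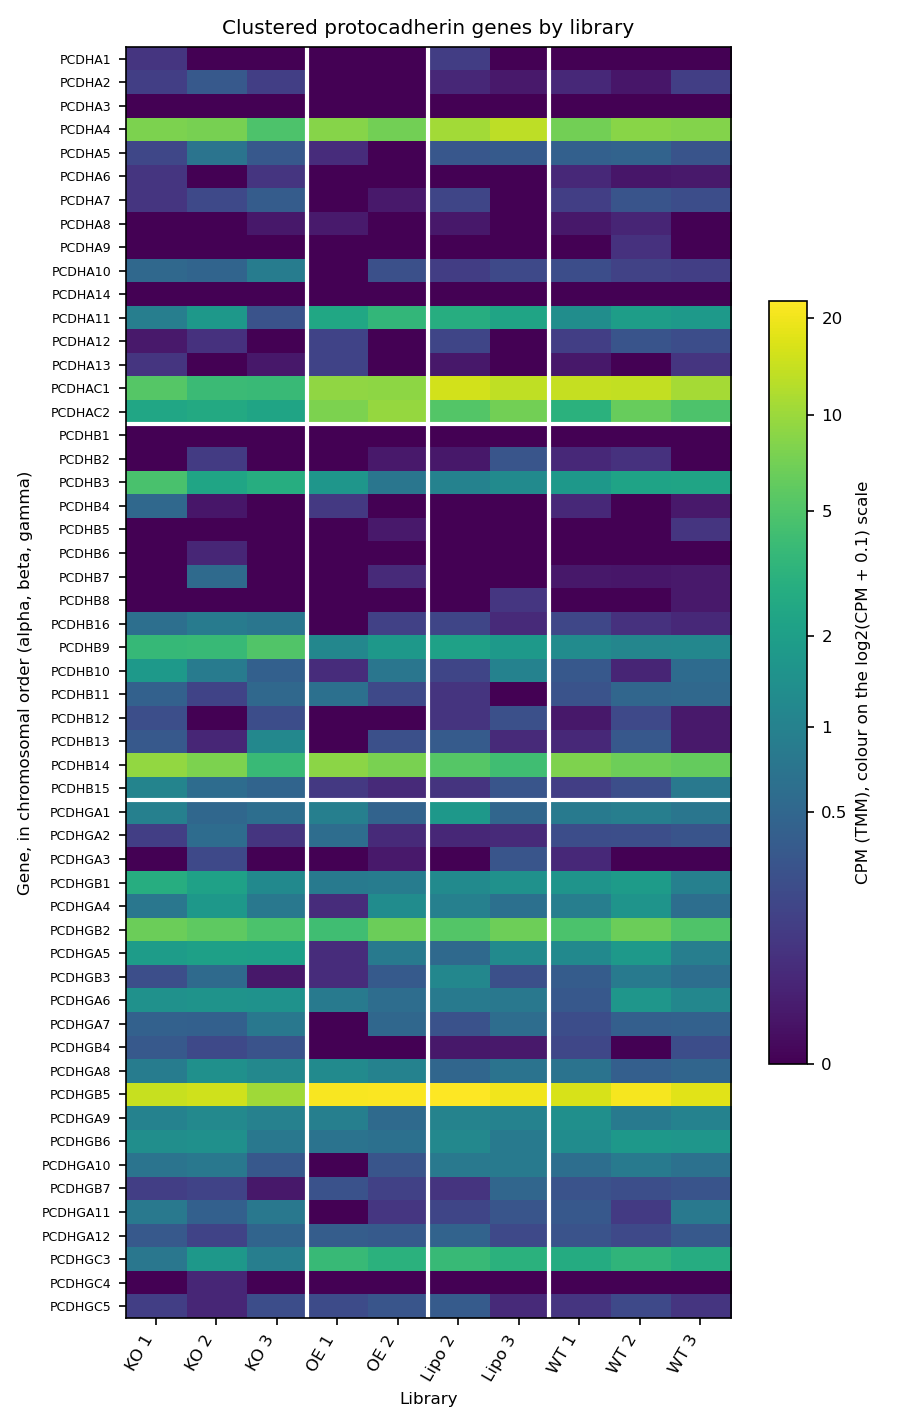
Level of each of the 54 members (rows, in chromosomal order, with white lines between the alpha, beta and gamma clusters) in each library (columns, with white lines between KO, OE, Lipo and WT), with colour for CPM on a log2 scale. Few rows are bright in every column, led by PCDHGB5, PCDHAC1 and PCDHA4, and most rows are dark throughout.

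Levels of different genes are compared per kilobase of exon not shared with another gene (GENCODE release 29). On that scale PCDHGB5 was the highest member in every group, at 4.96 ± 0.944 CPM per kilobase in KO (SD, n = 3), 8.07 ± 0.170 in OE (n = 2), 7.98 ± 0.664 in Lipo (n = 2) and 6.85 ± 0.946 in WT (n = 3). PCDHAC1 came next in WT at 3.16 ± 0.441, followed by PCDHGB2 at 2.12 ± 0.393, PCDHB14 at 1.49 ± 0.186 and PCDHAC2 at 1.37 ± 0.463. The means of PCDHB14 and PCDHAC2 lay within each other's spread, as did those of PCDHGC3 (0.910 ± 0.116) and PCDHA4 (0.750 ± 0.0769) within the sum of theirs. In KO the order was PCDHGB5, PCDHGB2 (2.22 ± 0.350), PCDHB14 (1.5 ± 0.615), PCDHAC1 (1.07 ± 0.210), PCDHB9 (1.03 ± 0.205) and PCDHB3 (0.976 ± 0.358), and from PCDHB14 on these spreads overlapped. PCDHA4 is listed with an exon of 10557 bases, which lowers its value per kilobase. How reads on the shared exons were counted is not stated in the sources used here. These exons are 59, 89 and 2718 bases long in the alpha cluster (15 genes) and 59, 89 and 2033 bases in the gamma cluster (22 genes). PCDHA3 and PCDHGC4, which hold them, had 0 and 2 reads over all libraries, against 1916 for PCDHA4 and 4167 for PCDHGB5. Not every isoform was thus given all reads on the shared exons.

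The comparison of KO with WT asks what the labelled loss of TET1 goes with at these promoters. PCDHAC1, PCDHAC2 and PCDHGC3, the C-type genes that were on, were all lower in KO, and the beta gene PCDHB9 was higher. Of the 54 members, 30 passed the filter on low counts and entered edgeR's quasi-likelihood test, and 4 of the 30 (13.3%) had an adjusted p under 0.05 (Benjamini-Hochberg over 15832 genes), 1 higher and 3 lower. Over all genes the share was 12.6%, with 5.13% higher and 7.45% lower, so the number of members called is near the background. The median log2 fold change of the tested members was 0.08, against 0.0034 over all genes tested. PCDHA10 and PCDHB16 passed the filter through their KO libraries alone, and PCDHB15 and PCDHGA11 would not have passed without theirs. The filter thus favoured members higher in KO, and the median is not read as a shift of the members. Where the calls fell was uneven: 3 of 3 tested C-type members were called lower, against 1 of 27 other tested members called higher and none lower. That split is given as a count, without a test of its own, from the same 4 calls and with results known. It was not stable, because without WT 2 only PCDHAC1 and PCDHB9 were called.

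PCDHAC1 was at 5.33, 3.90 and 3.81 CPM in KO, 9.11 and 8.91 in OE, 15.6 and 13.3 in Lipo, and 14.1, 13.8 and 10.8 in WT. All 3 KO libraries lay below every other library, and both OE libraries lay between KO and the wild-type-labelled ones. It averaged 4.35 ± 0.855 CPM in KO and 12.9 ± 1.80 in WT (SD, n = 3 each), 2.96-fold lower in KO (log2 -1.57, SE 0.19, adjusted p = 8.05e-05, edgeR quasi-likelihood).

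PCDHAC2, which in mouse is needed for serotonergic axons to space themselves, was at 2.38, 2.62 and 2.25 CPM in KO, 7.74 and 9.56 in OE, 5.16 and 7.02 in Lipo, and 3.07, 6.26 and 4.90 in WT. The KO libraries were again below all others, the nearest being WT 1. The level was lower in KO (log2 -0.97, SE 0.27, adjusted p = 0.0280, edgeR quasi-likelihood), with means of 2.42 ± 0.185 CPM in KO and 4.75 ± 1.60 in WT. This call was lost without KO 1 (adjusted p = 0.0519), KO 2 (0.0545), KO 3 (0.0826), WT 2 (0.167) or WT 3 (0.0788), and adjusted p ran from 0.0045 to 0.167 over the alternatives. An antisense gene (AC010223.1) overlaps PCDHAC2, and without a stated strand setting their reads cannot be told apart.

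PCDHGC3, whose protein binds Axin1 and dampens Wnt signalling in mouse and cultured cells, was at 0.750, 1.72 and 0.909 CPM in KO, 3.79 and 3.08 in OE, 3.75 and 3.10 in Lipo, and 2.73, 3.4 and 2.76 in WT. No KO library reached the lowest library of any other group. Its means were 1.12 ± 0.519 CPM in KO and 2.96 ± 0.378 in WT, 2.61-fold lower in KO (log2 -1.38, SE 0.33, adjusted p = 0.0122, edgeR quasi-likelihood). Without WT 2 the adjusted p was 0.0584, the highest of a range from 0.0025. The variable exons of PCDHAC1, PCDHAC2 and PCDHGC3 share no 50-base stretch with another member.

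The remaining C-type genes were barely detected. PCDHGC4, whose loss in mouse costs interneurons their survival, held 0, 0.0781 and 0 CPM in KO and had no read in OE, Lipo or WT. PCDHGC5 was at 0.176, 0.0781 and 0.260 CPM in KO, 0.246 and 0.322 in OE, 0.374 and 0.0911 in Lipo, and 0.130, 0.229 and 0.131 in WT, a trace level with overlapping groups. Neither passed the filter, so neither was tested.

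PCDHB9 was at 3.66, 3.75 and 5.15 CPM in KO, 1.13 and 1.70 in OE, 2.12 and 1.78 in Lipo, and 1.25, 1.11 and 1.14 in WT. Every KO library was above every other library. It averaged 4.19 ± 0.836 CPM in KO and 1.17 ± 0.0778 in WT, 3.58-fold higher in KO (log2 1.84, SE 0.30, adjusted p = 9.13e-04, edgeR quasi-likelihood). PCDHB9 shares 21% of its 50-base stretches with other members, most with PCDHB10, and overlaps the same-strand gene AC244517.6, so part of its reads could be split otherwise. PCDHB10 had a log2 change of 1.62 in KO with an adjusted p of 0.236.

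**Figure D3:**
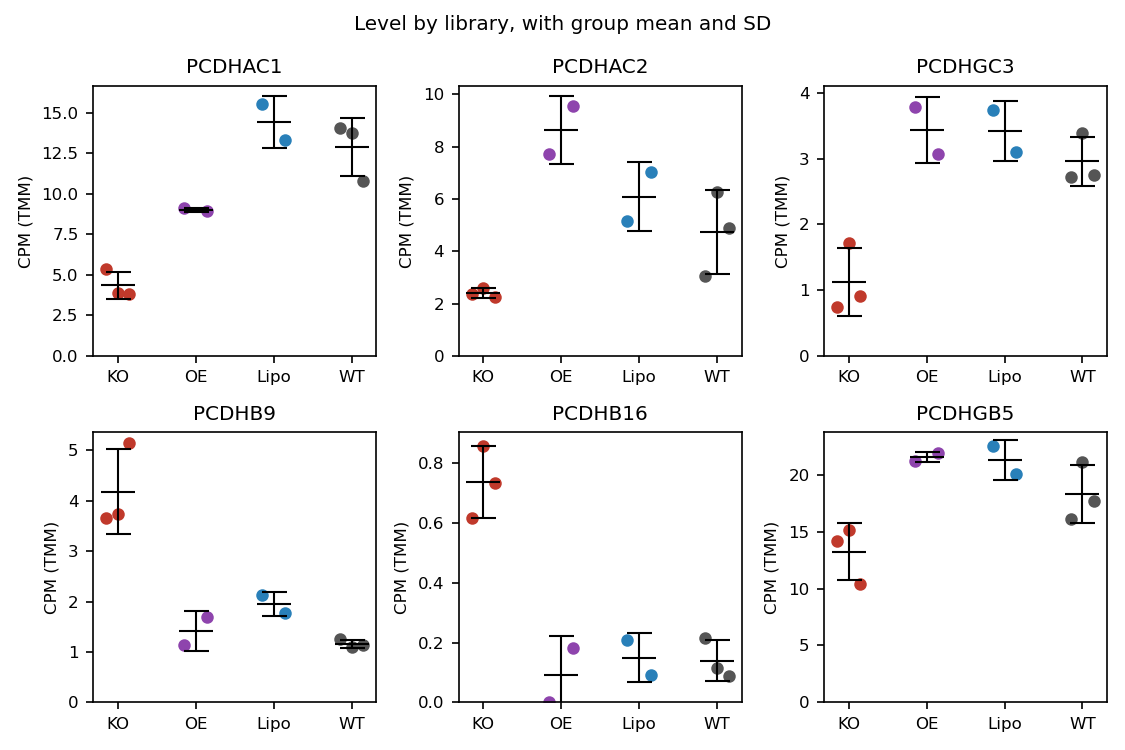
CPM (y axis, linear from 0) of 6 members in each library (points) of KO, OE, Lipo and WT (x axis), with the group mean and SD as bars, which are cut at 0. The KO points of PCDHAC1, PCDHAC2 and PCDHGC3 lie below all others, and those of PCDHB9 and PCDHB16 lie above all others.

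PCDHB16 was on in KO alone. It was at 0.617, 0.859 and 0.736 CPM in KO, 0 and 0.184 in OE, 0.208 and 0.0911 in Lipo, and 0.216, 0.115 and 0.0876 in WT. The log2 difference between KO and WT was 2.36 (SE 0.78), which missed the threshold (adjusted p = 0.062, edgeR quasi-likelihood). It passed when the fit held only KO and WT (adjusted p = 0.0265) or when all 5 wild-type-labelled libraries were the control (0.0311). PCDHB16 entered the tests through its KO libraries alone, as no other library exceeded 0.216 CPM, so these passes are not support for a difference. With no filter on low counts its adjusted p was 0.105 (edgeR quasi-likelihood). The antisense gene AC244517.4 and the same-strand genes AC244517.6 and AC244517.8 overlap PCDHB16, and their reads cannot be told apart here.

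Other members had levels in KO that did not overlap WT, without passing the test. PCDHGB5 was at 14.2, 15.2 and 10.4 CPM in KO, 21.2 and 21.9 in OE, 22.6 and 20.04 in Lipo, and 16.1, 21.1 and 17.6 in WT. The KO libraries were below all others, with a log2 difference of -0.47 (SE 0.17, adjusted p = 0.0926, edgeR quasi-likelihood), and the adjusted p was 0.0354 without KO 1 and WT 1. PCDHGB5 was the largest member in all 10 libraries and shares 19.6% of its 50-base stretches with other members, most with PCDHGB4. PCDHGA8 was at 0.882, 1.41 and 1.17 CPM in KO, 1.23 and 1.01 in OE, 0.499 and 0.683 in Lipo, and 0.692, 0.420 and 0.482 in WT, so that it was on in KO and OE, with KO above WT and OE above Lipo without overlap. Its log2 difference was 1.12 in KO (adjusted p = 0.129, edgeR quasi-likelihood) and 0.92 in OE (adjusted p = 0.324). In all, 6 tested members were higher in KO without overlap with WT (PCDHA10, PCDHB3, PCDHB16, PCDHB9, PCDHGA5 and PCDHGA8) and 4 were lower (PCDHAC1, PCDHAC2, PCDHGB5 and PCDHGC3), where 27.6% of all genes tested did not overlap (13.1% higher and 14.5% lower). PCDHA10 and PCDHB16 passed the filter on low counts through their KO libraries alone, so they could hardly have fallen among the lower members.

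**Figure D4:**
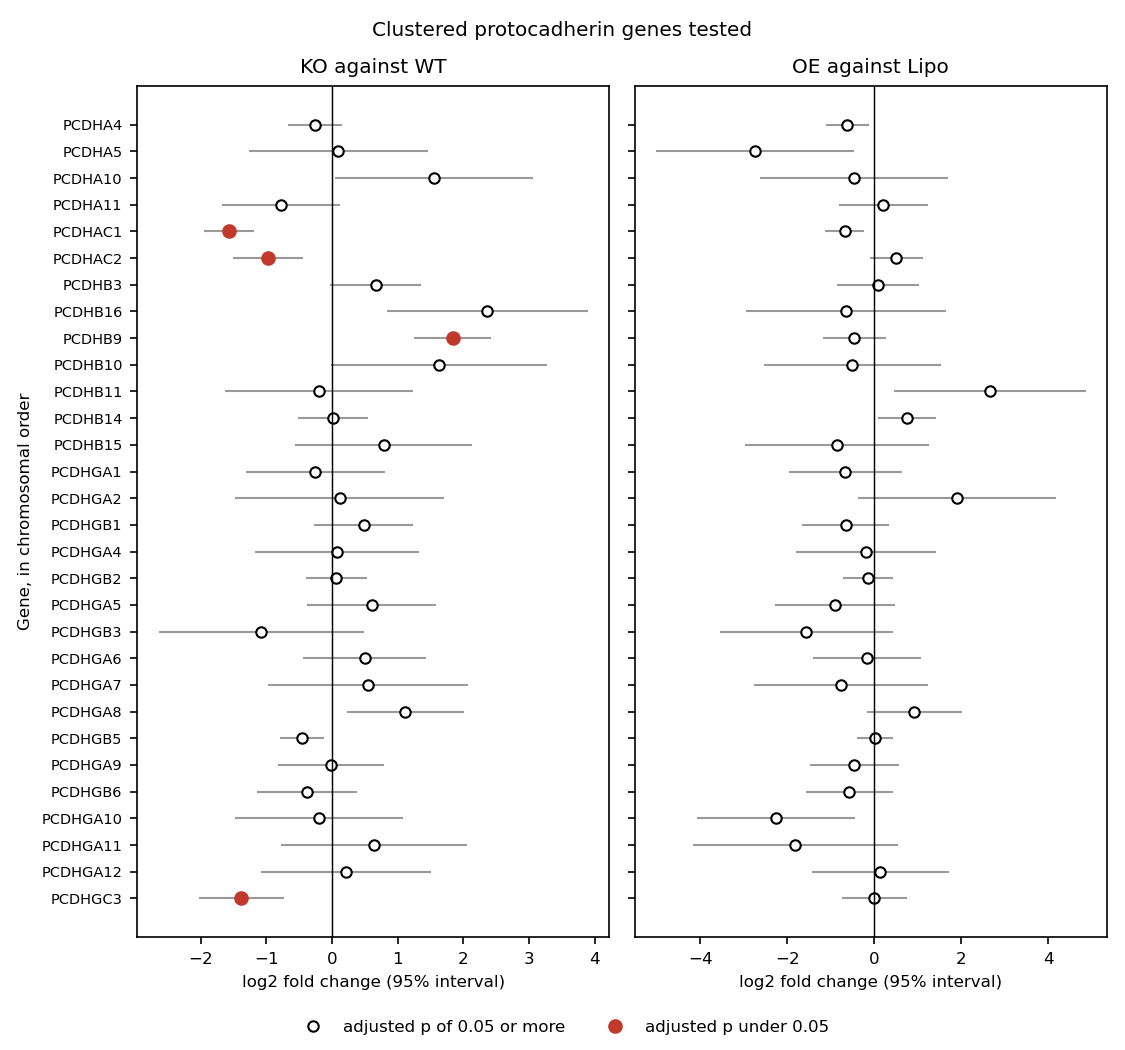
Fitted log2 fold change (x axis) with its 95% interval (1.96 SE) for the 30 tested members (y axis, in chromosomal order), KO against WT on the left and OE against Lipo on the right, with filled red points at adjusted p under 0.05. In KO the red points are PCDHAC1, PCDHAC2 and PCDHGC3 below 0 and PCDHB9 above 0, and no point is red in OE.

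Of the alpha isoforms other than C-type, PCDHA4 and PCDHA11 were on, and neither passed the KO test. PCDHA4 was at 7.71, 7.34 and 4.85 CPM in KO, 8.38 and 7.08 in OE, 10.6 and 13.1 in Lipo, and 7.01, 8.55 and 8.23 in WT. It was highest in Lipo and overlapped between KO and WT (log2 -0.26, 95% interval -0.67 to 0.15). PCDHA11 was at 0.926, 1.72 and 0.303 CPM in KO, 2.41 and 3.49 in OE, 2.83 and 2.28 in Lipo, and 1.34, 1.95 and 1.79 in WT, and the lowest KO library put it below the level called on (log2 -0.77, 95% interval -1.67 to 0.13). The remaining alpha members never reached the level called on in a whole group, and their highest value was 0.866 CPM for PCDHA10 in KO 3.

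Of the beta genes, PCDHB14 and PCDHB3 were on throughout beside PCDHB9. PCDHB14 was at 9.39, 7.73 and 3.81 CPM in KO, 8.72 and 7.45 in OE, 5.37 and 4.19 in Lipo, and 7.87, 6.72 and 6.17 in WT. The KO libraries lay on both sides of WT (log2 0.01, 95% interval -0.52 to 0.55). PCDHB3 was at 4.63, 2.34 and 2.86 CPM in KO, 1.63 and 0.735 in OE, 0.999 and 1.23 in Lipo, and 1.69, 2.21 and 2.28 in WT. Its KO libraries stood just above WT (log2 0.67, adjusted p = 0.251, edgeR quasi-likelihood), and the antisense gene AC244517.2 overlaps it. The beta genes that were never on peaked at 1.76 CPM, for PCDHB10 in KO 1.

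The gamma genes made up most of the members that were on. PCDHGB2 was at 6.61, 5.82 and 4.80 CPM in KO, 4.19 and 6.62 in OE, 5.16 and 6.74 in Lipo, and 4.76, 6.64 and 5.04 in WT. Its 4 groups overlapped (KO against WT log2 0.07, 95% interval -0.40 to 0.54). PCDHGB1 was at 2.82, 2.11 and 1.21 CPM in KO, 0.838 and 0.873 in OE, 1.25 and 1.46 in Lipo, and 1.56, 1.87 and 0.963 in WT. PCDHGB6 was at 1.37, 1.41 and 0.779 CPM in KO, 0.690 and 0.643 in OE, 1.17 and 0.820 in Lipo, and 1.30, 1.72 and 1.62 in WT. Both gamma B genes had their OE libraries below Lipo without overlap, and neither passed a test.

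PCDHGA9 was on in all 4 groups, at 1.01, 1.17 and 0.995 CPM in KO, 0.936 and 0.551 in OE, 1.04 and 1.00 in Lipo, and 1.38, 0.840 and 1.01 in WT. PCDHGA1 was at 0.970, 0.508 and 0.606 CPM in KO, 0.936 and 0.460 in OE, 1.71 and 0.501 in Lipo, and 0.822, 0.916 and 0.744 in WT. PCDHGA4 was at 0.750, 1.72 and 0.779 CPM in KO, 0.0985 and 1.29 in OE, 0.957 and 0.638 in Lipo, and 0.908, 1.56 and 0.613 in WT. In these 3 genes KO and WT overlapped, and the low OE library of PCDHGA1 and PCDHGA4 kept them off the OE list. PCDHGA5 was at 1.90, 2.07 and 2.03 CPM in KO, 0.0985 and 0.827 in OE, 0.541 and 1.23 in Lipo, and 1.21, 1.79 and 0.920 in WT. PCDHGA6 was at 1.46, 1.52 and 1.47 CPM in KO, 0.838 and 0.597 in OE, 0.832 and 0.774 in Lipo, and 0.346, 1.64 and 1.14 in WT. PCDHGA10 was at 0.705, 0.781 and 0.346 CPM in KO, 0 and 0.322 in OE, 0.790 and 0.820 in Lipo, and 0.606, 0.840 and 0.657 in WT. PCDHGA5 and PCDHGA6 had 3 close KO values, and PCDHGA10 was on in Lipo and WT alone. The gamma genes that were never on reached at most 1.12 CPM, for PCDHGB3 in Lipo 2.

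In sum over each cluster, the alpha members stood at 17.9, 17.5 and 13.2 CPM in KO, 28.2 and 29.4 in OE, 35.4 and 36.4 in Lipo, and 26.8, 32.1 and 27.1 in WT. The beta members stood at 22.7, 17.2 and 15.4 CPM in KO, 12.5 and 11.6 in OE, 9.69 and 9.43 in Lipo, and 12.2, 11.7 and 11.9 in WT. The gamma members stood at 36.2, 38.4 and 28.3 CPM in KO, 36.5 and 40.2 in OE, 42.9 and 40.3 in Lipo, and 34.7, 45.1 and 36.8 in WT. KO thus lay below WT in the alpha sum and above it in the beta sum without overlap, and the gamma sums overlapped. Without PCDHB9 the beta sum was 19.05, 13.5 and 10.3 CPM in KO and 10.9, 10.6 and 10.8 CPM in WT, so that KO 3 lay below all 3 WT libraries and the groups overlapped. C-type genes took 37.4% to 45.9% of alpha reads in KO, 59.8% and 62.9% in OE, 58.5% and 55.9% in Lipo, and 58.0% to 64.0% in WT. They took 2.56% to 4.88% of gamma reads in KO, 11.1% and 8.47% in OE, 9.59% and 7.92% in Lipo, and 7.86% to 8.22% in WT. The alpha genes other than C-type summed to 7.14 to 10.9 CPM in KO and 9.65 to 12.0 CPM in WT, which overlap. The beta share of all reads from the 54 members was 23.6% to 29.6% in KO, 16.2% and 14.3% in OE, 11.01% and 10.96% in Lipo, and 13.2% to 16.6% in WT. These sums and shares are descriptions with no test.

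**Figure D5:**
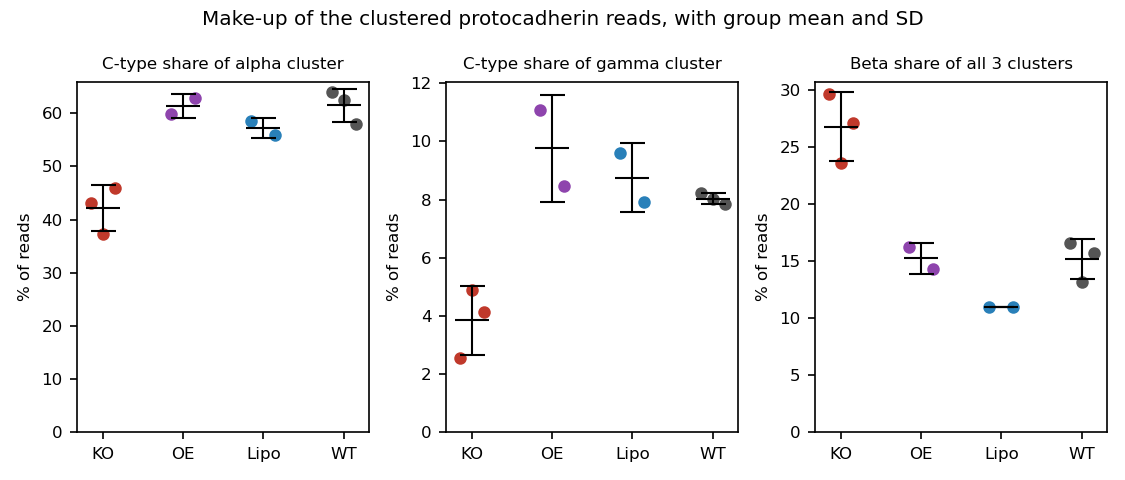
Share of reads (y axis, %, from 0) taken by C-type genes within the alpha cluster (left) and the gamma cluster (middle), and by the beta cluster within all 54 members (right), in each library (points) of KO, OE, Lipo and WT, with the group mean and SD. KO lies below every other library in the first pair of panels and above every other library in the right panel.

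Markers of other cell types moved with KO as well. Of 6 fibroblast markers, COL1A1 and LUM were tested and both fell in KO (log2 -1.86 and -0.72, adjusted p = 5.93e-06 and 0.0243, edgeR quasi-likelihood). The summed fibroblast level was 70.9 to 77.6 CPM in KO, 343 to 351 in OE, 170 to 183 in Lipo and 177 to 288 in WT, with 3 markers at 0 in KO, 4 in OE, 3 in Lipo and 3 in WT, among them PDGFRB and DCN in all 4 groups. The epithelial markers CDH1 and KRT7 fell in KO as well (log2 -0.75 and -0.46, adjusted p = 3.31e-04 and 0.0222), 2 of 8 tested, and the lung marker SFTPB fell (log2 -1.97, adjusted p = 3.79e-07). SFTPB also differed between the wild-type-labelled groups, being lower in Lipo than in WT (log2 -1.36, adjusted p = 6.74e-04, edgeR quasi-likelihood). Of 6 interferon-stimulated genes, IFIT1 and IFIT3 rose in KO (log2 0.82 and 1.55, adjusted p = 0.00605 and 5.48e-05). The part of these in the protocadherin results was not tested. Without KO 1 and WT 1 all 4 calls held, with adjusted p of 8.65e-05 for PCDHAC1, 0.00788 for PCDHAC2, 0.038 for PCDHGC3 and 0.00333 for PCDHB9.

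OE was compared with Lipo to ask what added TET1 goes with, and no member passed the test. Of the same 30 tested members 0 were called by edgeR's quasi-likelihood test, where 12.3% of all genes were (6.79% higher and 5.53% lower), and DESeq2 also called 0. At an unadjusted p under 0.05 there were 6 members. The lowest adjusted p was that of PCDHAC1, which averaged 9.02 ± 0.141 CPM in OE and 14.4 ± 1.60 in Lipo (SD, n = 2 each), 1.60-fold lower in OE (log2 -0.68, SE 0.23, adjusted p = 0.067). With 1 library left out, PCDHAC1 passed without KO 1 (0.0383) or KO 3 (0.0473), PCDHB14 without KO 3 (0.0449) and PCDHGA10 without OE 2 (0.0286), and the adjusted p of PCDHAC1 ran from 0.00282 to 0.324 over the alternatives. The other 5 were PCDHGA10 (log2 -2.26), PCDHA5 (-2.73) and PCDHA4 (-0.62), lower in OE, and PCDHB11 (2.65) and PCDHB14 (0.76), higher in OE, with adjusted p from 0.132 to 0.171. PCDHA5, PCDHB11 and PCDHGA10 rest on few reads, with a library at 0 in OE or Lipo and no library of these groups above 0.820 CPM. PCDHAC2 and PCDHGC3 had log2 differences of 0.51 (95% interval -0.10 to 1.12) and 0.00 (95% interval -0.74 to 0.74).

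The median log2 difference of the tested members in OE was -0.46, against -0.0071 over all genes. Without overlap between OE and Lipo, 5 members were higher and 9 lower, in a comparison of 2 against 2 where 65.6% of all genes do not overlap (32.8% higher and 32.8% lower). All 6 interferon-stimulated genes listed (OAS2, MX1, IFIT1, IFIT3, ISG15 and RSAD2) rose in OE, with sums of 5778 to 5875 CPM in OE, 49.5 to 69.4 in Lipo, 39.2 to 55.2 in KO and 34.6 to 42.1 in WT. These 6 were listed because they were already known to stand high in OE, so their rise is a description and not a separate result. Their part in the protocadherin values was not tested. COL1A1 and LUM also rose in OE (log2 0.99 and 0.87, adjusted p = 0.00643 and 0.0235), as did the neuronal gene SYT1 (log2 1.17, adjusted p = 0.0296) and KRT7 (log2 0.63, adjusted p = 0.0124), while SFTPB fell (log2 -1.35, adjusted p = 1.27e-04). The share of mitochondrially encoded reads was 4.74% to 4.89% in OE and 8.04% to 8.72% in Lipo.

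Lipo and WT, both labelled wild type, show how far members vary between sets of control libraries. No member of the 30 was called by edgeR's quasi-likelihood test or by DESeq2, against 3.7% of all genes (1.32% higher and 2.38% lower), and 3 had an unadjusted p under 0.05. These were PCDHA4 (log2 0.58, adjusted p = 0.182), PCDHB11 (-2.68, 0.185) and PCDHB9 (0.74, 0.252). Without overlap, 3 members were higher in Lipo and 5 lower, where 43.5% of all genes did not overlap (21.3% higher and 22.2% lower). PCDHB9 in both Lipo libraries was below every KO library.

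Whether KO and OE differ in what they go with was tested as the KO effect minus the OE effect, and 2 of 30 members were called (6.67%), against 16.6% of all genes (7.16% higher and 9.47% lower). PCDHB9 had a difference of 2.30 (SE 0.48, adjusted p = 0.00415, edgeR quasi-likelihood) and PCDHAC2 one of -1.48 (SE 0.41, adjusted p = 0.0234). The PCDHAC2 call was lost without WT 2 (adjusted p = 0.0691), OE 2 (0.107) or Lipo 2 (0.124). PCDHAC1 (-0.89, adjusted p = 0.055) and PCDHGC3 (-1.39, adjusted p = 0.0722) did not pass, although PCDHAC1 did without KO 1 (0.0194) or WT 3 (0.0485), with the stricter filter on low counts (0.0491) and by DESeq2 (0.0444), and PCDHGC3 without KO 2 (0.0162). For PCDHAC1 both effects were negative, so KO and OE were not shown to differ in direction. For PCDHB9 and PCDHAC2 the OE change did not pass on its own (adjusted p = 0.479 and 0.327, edgeR quasi-likelihood).

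Genes that act on promoter choice changed in part in KO. Of 20 tested genes in a list of CTCF, cohesin and repressors of the clusters, 2 rose and 1 fell in KO, near the background of 12.6%, with a median log2 of -0.14. RAD21, a cohesin subunit, rose to 568 ± 73.4 CPM in KO against 348 ± 5.38 in WT (log2 0.71, adjusted p = 7.75e-04, edgeR quasi-likelihood). SMCHD1, which in mouse keeps clustered protocadherins silent, fell to 30.9 ± 10.5 CPM in KO against 69.2 ± 10.6 in WT (log2 -1.16, adjusted p = 0.00164). SETDB1, a histone H3 lysine methyltransferase, rose (log2 0.47, adjusted p = 0.043), and CTCF did not pass (79.6 ± 15.2 CPM in KO, 88.5 ± 10.4 in WT, adjusted p = 0.558). None of the 20 passed in OE, where STAG2 had the smallest adjusted p (0.153), or in Lipo against WT.

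Of 14 tested genes that write, read or remove DNA methylation, 2 were called in KO, near the background of 12.6% of all genes. ZBTB38, a reader of methylated DNA, fell in KO (log2 -0.94, adjusted p = 0.00189, edgeR quasi-likelihood), and MBD4, a glycosylase that repairs deaminated methylated sites, rose (log2 0.63, adjusted p = 0.00746). The writers DNMT1 (log2 -0.19, adjusted p = 0.27) and DNMT3B (0.27, 0.277) did not pass. In OE the list's single call was TET1 itself, and in Lipo against WT there was none.

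Among 16 tested genes listed as acting downstream of protocadherins, 1 rose and 4 fell in KO, and 1 rose and 3 fell in OE. Of all genes, 12.6% were called in KO and 12.3% in OE. PTK2, the focal adhesion kinase that alpha and gamma protocadherins bind and inhibit, fell to 119 ± 15 CPM in KO against 225 ± 1.86 in WT (log2 -0.92, adjusted p = 1e-04, edgeR quasi-likelihood), and its relative PTK2B rose (log2 0.63, adjusted p = 0.00946). PRKCA, a protein kinase C, fell in KO (log2 -0.85, adjusted p = 8.33e-04) and in OE (log2 -0.77, adjusted p = 0.00787). NCKAP1 and AXIN1 also fell in KO (log2 -0.40 and -0.44, adjusted p = 0.0443 and 0.0477). In OE the WAVE complex genes ABI2 and CYFIP2 fell (log2 -0.76 and -0.75, adjusted p = 0.00449 and 0.0066) and MARCKS rose (log2 0.67, adjusted p = 0.00472). None was called in Lipo against WT.

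Of 20 tested neighbours on 5q31, 2 were called in KO and 2 in OE, near the background of 12.6% of all genes in KO and 12.3% in OE. In KO, DELE1 rose (log2 0.37, adjusted p = 0.0497, edgeR quasi-likelihood) and HARS2 fell (log2 -0.42, adjusted p = 0.0368), with a list median of 0.05. In OE, DELE1 and ARAP3 fell (log2 -0.66 and -1.22, adjusted p = 0.00717 and 0.0109), and none was called in Lipo. Of 12 protocadherins outside the clusters 4 were tested (PCDH1, PCDH7, PCDH9 and PCDH12), and none was called in KO or OE, where the smallest adjusted p were 0.0942 for PCDH12 in KO and 0.121 for PCDH9 in OE. PCDH9 fell in Lipo against WT (log2 -1.25, adjusted p = 0.0252).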

How the data were processed

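The values are whole-number read counts per gene as deposited by the authors, unnormalized, in 1 column per library. Another 2 columns fit no sample given here and were left aside. GRCh38, featureCounts, edgeR, HISAT2 2.1.0 and FastQC are named in the submitters' processing notes, without role or order. The kit is stranded per the labels' protocols, but the annotation, strand setting and treatment of reads shared by genes are not given in the sources used here, which bears on the shared exons and overlapping genes named above. The table has 62710 entries, of which 1 (ANK2) had no values.

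Counts were scaled by TMM and fitted with edgeR 4.0.16 (R 4.3.3) as a robust quasi-likelihood model over all 10 libraries, 1 coefficient per group, with 6 residual degrees of freedom, after filterByExpr left 15832 genes. Tests were two-sided at an adjusted p of 0.05 (Benjamini-Hochberg over all genes tested). The SE is the size of the log2 fold change over the square root of the F statistic, and 95% intervals are 1.96 SE. A count of 0 stayed at 0 in levels, means and fits, and the bound of 3 counts per library is a description only. Promoters are RefSeq's, 1 per symbol (the most 5′ start); PCDHA3, PCDHA13, PCDHA14, PCDHB6, PCDHB11, PCDHGA12 and PCDHGC5 had none in the table. Gene lists were described by counts and medians, with no test of a list. The procedure was tested on simulated data. The members, gene lists and rules were chosen with earlier results of these data known. Values in every library are given for members on in at least 1 group or called, the C-type members and TET1. Up to 4 genes of smallest p per related list and comparison are named; CTCF and AXIN1 were named outside that rule, after their values were seen.

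Counts of members called were recomputed, as was each protocadherin with an unadjusted p under 0.05, in that comparison. The alternatives were DESeq2 1.42.0, RLE scaling, plain library sizes, no filter, and a stricter filter (1 CPM in 3 libraries and 100 counts in all). Others were the compared groups alone, replicate number as a block, other control groups, no mitochondrial and ribosomal RNA genes, and leaving out every library singly. Members described with a larger p were not recomputed. Numbers on were recomputed with other levels for on and with libraries left out. Cluster sums were recomputed with RLE scaling, plain library sizes and libraries left out. Genes of the related lists were not recomputed this way. A fit without KO 1 and WT 1, and a block term for OE within the 10-library fit, were chosen after seeing the data.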

Additional observations from a re-analysis of the deposited data

Results flagged for a closer look

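A pair of genes differed between the KO and OE effects by a test of that difference (edgeR quasi-likelihood, adjusted over 15832 genes). They were 6.67% of the 30 tested members, against 16.6% of all genes called. For PCDHB9 the KO effect minus the OE effect was 2.30 on the log2 scale (adjusted p = 0.00415), with log2 1.84 for KO against WT, where all 3 KO libraries were above all 3 WT libraries, and -0.46 for OE against Lipo, where both OE libraries were below both Lipo libraries. For PCDHAC2 the difference was -1.48 (adjusted p = 0.0234), with log2 -0.97 for KO, lower in 3 of 3 libraries than every WT library, and 0.51 for OE, higher in 2 of 2 libraries than both Lipo libraries. Levels did not overlap for 65.6% of all genes between OE and Lipo and for 27.6% between KO and WT. Neither OE change passed (adjusted p = 0.479 for PCDHB9 and 0.327 for PCDHAC2, edgeR quasi-likelihood), so an opposite change in OE was not shown. The PCDHB9 difference passed under every alternative run, with adjusted p up to 0.0306, and the PCDHAC2 difference reached 0.124 without Lipo 2. The cause of these differences was not tested.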

How the results depend on the processing

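PCDHAC1 and PCDHB9 kept their KO direction and call under every alternative (log2 -1.74 to -1.48 and 1.5 to 1.97). The number of members called in KO, 4, was 2 to 4 when 1 library was left out (2 without WT 2), 6 with the replicate block in the fit of KO and WT (PCDHB16 and PCDHGB5 added, with 23% of all genes called), 6 with Lipo added to WT as control (5 libraries), 5 without KO 1 and WT 1, and 4 by DESeq2 or with KO and WT alone, where PCDHB16 entered and PCDHAC2 left (adjusted p = 0.0698). In OE, 0 became 3 with OE and Lipo alone (PCDHA4, PCDHAC1 and PCDHB14, with 39% of all genes called), 1 with WT as control (PCDHAC2), 1 with the replicate block over all 10 libraries (PCDHAC1, adjusted p = 0.0132), and 0 to 2 with 1 library left out; where a group then had 1 library, it was assumed to vary like the others. The PCDHB11 difference in OE turned to -0.0303 with WT as control. In Lipo against WT, 0 became 1 with the block (PCDHA4, adjusted p = 0.0395) and stayed 0 with any library left out. The difference of effects gave 1 to 3 calls with 1 library left out (1 without WT 2 or Lipo 2) and 3 by DESeq2. The causes were not tested.

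At 1 CPM in every library, 11 members were on in KO, 11 in Lipo and 11 in WT, and at 0.2 CPM 26 were on in WT. With library size alone the alpha sums were 27.9 CPM in OE and 35.0 in Lipo, and the beta sum 9.33 in Lipo.

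Same-numbered KO and WT libraries deviated together with correlations of 0.456, 0.099 and 0.284. The highest with another number were -0.255, 0.043 and 0.155, so each KO library correlated best with its own number. The main KO test did not pair the libraries, because the correlations were not all above 0.1. Whether the numbers mark pairs was not tested. With the replicate block in the fit of KO and WT, 6 members were called, among them the 4 of the main test. That fit called 23% of all genes, against 8.3% with KO and WT alone and no block. OE and Lipo share only number 2. Depth limits the trace members: 24 of 54 were too low to test.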
